A study of Mus musculus with 12 samples.

Results

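Messenger RNA of 10 genes of inhibitory Ig-like and Cd300 receptors and their paired or activating relatives was compared between aged and young mice. The cells were monocytic myeloid-derived suppressor cells (M-MDSCs) of the bone marrow. The inhibitory receptor genes were Pirb, Lilrb4, Cd300a, Cd300lf, Siglece, Pilra and Sirpa, and the relatives were Gp49a, Cd300lb and Cd300ld. The genes were chosen by symbol from the 23420 genes of the count table. The table held 9 of the 10 symbols as such, and Pirb was read from the row Lilrb3, which RefSeq lists as its synonym and which spans the same interval. All 10 were among the 9742 genes with enough counts to be tested. The study compared 6 male C57BL/6JNIA mice of 24 months with 6 of 6 months, untreated and without an engineered allele in the labels, with 1 RNA library per mouse from cells sorted from tibial marrow as CD11b+Ly6G-Ly6Chi. It asked how the transcriptome of these cells differs with age. M-MDSCs are immature myeloid cells named for their ability to restrain T cells, and the sort defines them by surface protein, not by that function.

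Inhibitory receptors of the immunoglobulin superfamily act as brakes on myeloid cells. Their cytoplasmic tails carry immunoreceptor tyrosine-based inhibitory motifs (ITIMs) that Src family kinases phosphorylate when a ligand is bound, and the phosphatases SHP-1 (Ptpn6), SHP-2 (Ptpn11) and SHIP-1 (Inpp5d) are then recruited and dampen kinase cascades. Many have a paired relative without an ITIM that signals through the adaptors DAP12 (Tyrobp) or the Fc receptor gamma chain (Fcer1g), so that an inhibitory and an activating receptor can sit on the same cell. Pirb, Lilrb4, Cd300a, Cd300lf, Siglece, Pilra and Sirpa belong to the inhibitory kind, while Gp49a, Cd300lb and Cd300ld lack the ITIM and are the paired or activating relatives of the group.

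The libraries were checked against the sort before the receptors were compared. Neutrophil marker genes were the most abundant marker list, with a summed level of 79295 to 93905 CPM (counts scaled to the same TMM-normalized library total) in aged and 62342 to 84803 CPM in young mice, and Ngp alone averaged 39574 and 30900 CPM. The 10 classical monocyte markers summed to 12256 to 17538 and 14956 to 19611 CPM, mostly from Lyz2. Ly6c2, a gene of the Ly6C antigen used in the sort, averaged 726 and 500 CPM, Mpeg1 430 and 413 CPM and Csf1r 141 and 134 CPM, while Ccr2 averaged 31.2 and 37.1 CPM, F13a1 21.0 and 26.8 CPM, and Irf8 6.60 and 4.42 CPM. Transcripts of neutrophil markers thus exceeded those of monocyte markers in every library, although the label is monocytic. In such bulk RNA, fewer cells of a type and less RNA per cell cannot be told apart. Markers of resident macrophages summed to 90.0 to 1143 CPM in aged mice, highest in aged mouse 1, and to 77.6 to 96.4 CPM in young mice, and 9 of the 9 tested passed the test as higher in aged mice, beside 22.4% of all genes. Of 10 neutrophil markers 4 were higher and 0 lower, beside 22.4% higher and 23% lower of all genes. The 4, Stfa2l1, Camp, Retnlg and Ngp, have 414 to 1161 exon bases. Mcemp1, with 1132, and Mmp8, Mmp9, Ltf, Cxcr2 and Csf3r, with 2453 to 4047, did not pass. These markers were not followed through the gene length correction used below. Of 8 tested nonclassical monocyte markers 1 was higher and 4 were lower, and of 10 classical monocyte markers 1 was higher and 1 lower. Of 7 tested progenitor and cell cycle markers 4 were higher (Prtn3 by 1.54) and 2 lower (Mki67 at -2.01), and of 5 tested dendritic cell markers 2 were higher (H2-Ab1 by 2.30 and Cd74 by 2.15) and 1 lower (Clec9a at -2.45). Young mice 5 and 6 stood apart from the other 4 young mice on the second principal component, at 9.04 and 10.9 against -6.08 to -3.19, and on the first, which separated the ages, at 21.9 and 19.995 against 8.73 to 11.1. They had the lowest neutrophil marker sums of the young, 62342 and 66318 CPM against 74973 to 84803 CPM. Their progenitor and cell cycle marker sums, mostly Mki67 and Top2a, were the highest, at 1147 and 1087 CPM against 593 to 712 CPM. Receptor values that move and calls that are lost without them are given beside the results, and the part of these other signatures in the receptor results was not tested.

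Siglece was the receptor gene that passed the test between the ages, and the other 9 did not. It was higher in aged mice by 0.40 ± 0.09 on the log2 scale (SE, n = 6 per age), a 1.32-fold difference, with an adjusted p of 0.00237 in edgeR's quasi-likelihood test. Of all genes tested, 45.4% passed the same test (22.4% higher and 23% lower in aged mice), so 1 of 10 was a smaller share than the background, which is given as a description without a test of the list. Of the genes called, 49.4% were higher in aged mice, and 37.8% without TMM scaling, where Siglece was at 0.32. The values of the ages were free of overlap for Siglece alone among the 10, and for 21.8% of all genes tested (9.68% higher and 12.1% lower in aged mice). The median log2 fold change of the 10 genes was -0.031 and that of all genes 0.0062. Absolute fold changes had a median of 0.13 for the 10 genes and 0.29 for all genes. Summed over the 10 genes, the level was 2899 to 3694 CPM in aged mice and 3059 to 3578 CPM in young mice, so the ranges overlapped.

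**Figure D1:**
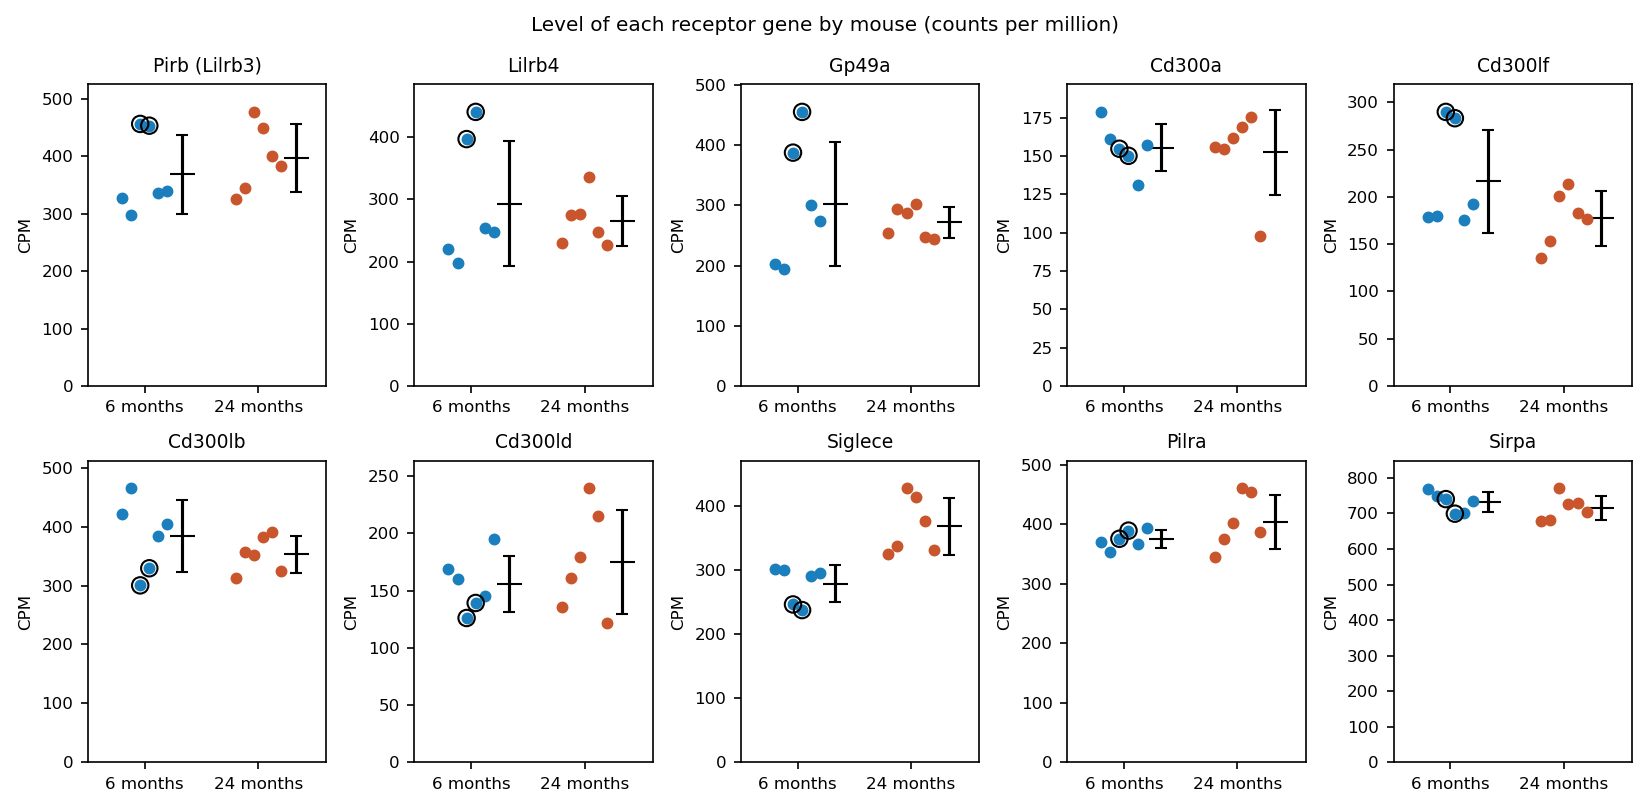
Level of each receptor gene in CPM (y axis, from 0) in 6 mice per age (6 and 24 months); points are mice, bars are mean ± SD, and rings mark young mice 5 and 6. Siglece is the gene whose ages do not overlap, from 238 to 302 CPM in young and from 325 to 428 CPM in aged mice.

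Siglece encodes Siglec-E, a receptor of neutrophils and monocytes that binds sialic acid on the surface of its own or neighbouring cells and carries ITIMs. The gene lies at chr7:43651070-43660161 on the minus strand of mm10 and was counted over 7 exons. In young mice its level ran from 238 CPM in mouse 6 over a median of 293 to 302 CPM in mouse 1. In aged mice it ran from 325 CPM in mouse 1 over a median of 357 to 428 CPM in mouse 4. Every aged mouse was above every young mouse. Means were 369 ± 44.4 CPM in aged and 279 ± 29.0 CPM in young mice (SD, n = 6), from 2898 to 5306 and 1407 to 2514 counted fragments per library, and the 95% interval of the log2 fold change was 0.21 to 0.59. Young mice 5 and 6 had the lowest young values, 247 and 238 CPM. Without both, an alternative chosen after the data were seen, the log2 fold change was 0.29 with an edgeR adjusted p of 0.0139, and the background share was then 32% of genes. No 50-base stretch of the Siglece transcript recurred in the transcript of another gene, which leaves its counts free of the ambiguity that touches Pirb and the Gp49a pair.

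The 150 bases before the RefSeq start of Siglece are shown because it is the receptor gene that differed, at chr7:43660162-43660311 on the minus strand of GRCm38.p6. Capitals mark the letters GAGGAA, the core recognised by the myeloid factor PU.1, or their reverse complement.

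Siglece: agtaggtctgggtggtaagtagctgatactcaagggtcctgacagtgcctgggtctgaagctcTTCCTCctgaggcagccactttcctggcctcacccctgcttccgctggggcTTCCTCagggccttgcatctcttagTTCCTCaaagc

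The 3 matches begin 87, 36 and 11 bases before the start, all on the opposite strand. Read on both strands of windows from 250 bases before to 50 after the start, GAGGAA was found in 6 of the 8 receptor genes with a RefSeq promoter entry and in 28.3% of all 32851 promoters. TTGCNNAA, a C/EBP spelling, was found in 2 of 8 and in 10.8% of promoters. These were 2 of 7 spellings searched, and were picked for the text after the matches had been seen. The other 5, some of which contain or overlap the first, were GAGGAAGT in 3 of 8 (3.2% of promoters), AGAGGAAG in 4 of 8 (4.55%), CTTCCTGT in 2 of 8 (3.58%), ACTTCC in 5 of 8 (23.8%) and TTGCGCAA in 0 of 8 (0.183%). Binding was not measured, and a match describes letters only.

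Pirb and the Gp49a and Lilrb4 pair belong to the leukocyte immunoglobulin-like receptors. Pirb, which binds MHC class I molecules, is a classical brake on neutrophils and macrophages, and lies at chr7:3712505-3720382 on the minus strand. Its level was 298 to 456 CPM in young mice with a median of 338, and 326 to 477 CPM in aged mice with a median of 392. The ranges overlapped, with means of 368 ± 68.5 and 397 ± 58.5 CPM, a log2 fold change of 0.11 and an adjusted p of 0.494. The 95% interval, -0.15 to 0.36, left room for a rise of 1.29-fold and for a fall. Young mice 5 and 6 were at 456 and 453 CPM and the other 4 at 298 to 340 CPM. Without both, the log2 fold change of Pirb was 0.27 with an adjusted p of 0.0493. In 37.3% of its 50-base windows the GENCODE transcript of Pirb matched transcripts of other genes, the most in Gm14548 and Pira2, so reads may have been left out or split among them.

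Lilrb4 encodes the inhibitory gp49B and Gp49a its neighbour without an ITIM. They sit side by side on the plus strand of mm10, at chr10:51490975-51496611 and chr10:51480679-51486219, with 9 exons each. Over 910 aligned coding bases they differ at 36 and are 96% identical, and the longest identical run is 126 bases. The stretch of 60 coding bases with the most differences, bases 209 to 268 of both, shows how they can be told apart, at chr10:51481278-51481337 for Gp49a and chr10:51491572-51491631 for Lilrb4 (GENCODE M21, GRCm38, plus strand). Capitals mark the 9 bases that differ.

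Gp49a: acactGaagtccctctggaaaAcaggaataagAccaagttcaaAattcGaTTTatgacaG
Lilrb4: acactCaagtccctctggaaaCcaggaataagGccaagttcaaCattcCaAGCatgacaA

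In young mice Lilrb4 ran from 197 to 441 CPM with a median of 251, and in aged mice from 227 to 336 CPM with a median of 261. Gp49a ran from 193 to 455 CPM with a median of 287 in young and from 244 to 303 CPM with a median of 271 in aged mice. For both genes the aged values lay inside the young range. Lilrb4 averaged 265 ± 40.8 CPM in aged and 293 ± 101 CPM in young mice, with a log2 fold change of -0.15 (95% interval -0.53 to 0.24) and an adjusted p of 0.527. Gp49a averaged 272 ± 26.1 and 302 ± 103 CPM, with -0.16 (-0.53 to 0.21) and 0.482. These were the 2 genes with the widest spread among the young, with a coefficient of variation of 34.3% and 34.2% against 15.4% and 9.60% in aged mice. Young mice 5 and 6 held the top values, 397 and 441 CPM for Lilrb4 against 197 to 255 CPM in the other young, and 388 and 455 CPM for Gp49a against 193 to 301 CPM. Leaving both out turned the direction to 0.18 for Lilrb4 (adjusted p 0.209) and 0.14 for Gp49a (0.391), while the gene length correction gave -0.36 (0.142) and -0.40 (0.0981).

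The balance within the pair was almost constant while its level was not. The summed level of both genes varied from 391 to 896 CPM among young mice and from 471 to 639 CPM among aged mice. Gp49a made up 50.7% ± 1.84 of the pair's fragments in aged and 50.7% ± 2.29 in young mice (SD, n = 6), a difference of 0.01 percentage points with a two-sided p of 0.994 in an exact permutation test over 924 regroupings. How fragments from the identical stretches were assigned bears on this share: 24.3% of the 50-base windows of Gp49a and 100% of those of Lilrb4 occur in another gene model of GENCODE, in the case of Lilrb4 in the overlapping model Gm49339, which is no row of the count table, and 370 of 1332 in Gp49a itself.

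**Figure D2:**
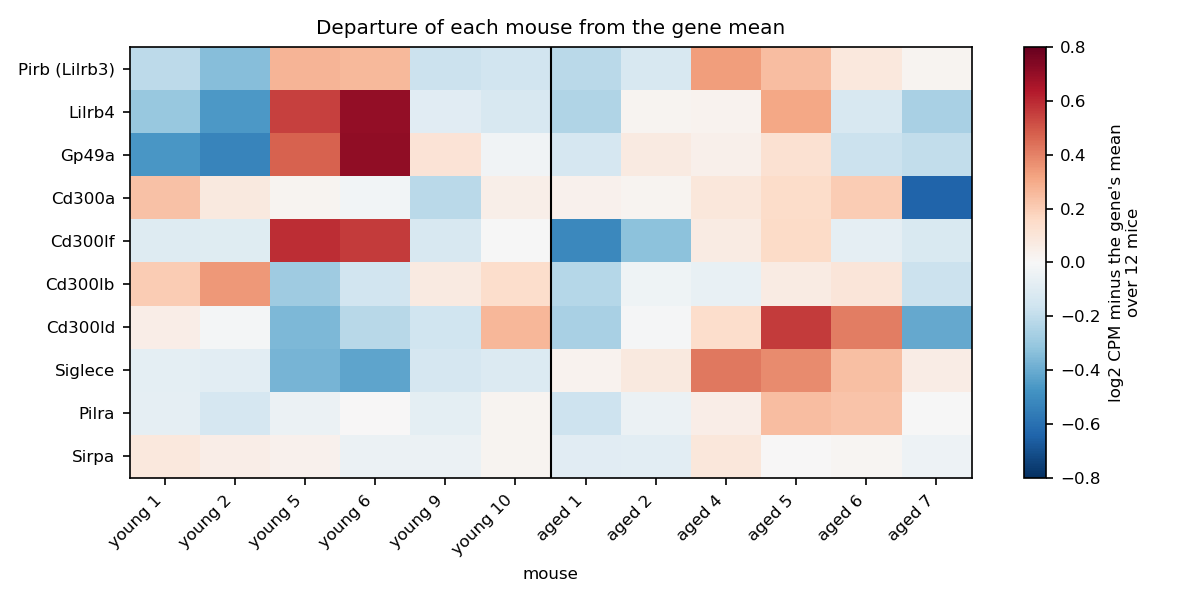
Departure of each mouse (x axis) from the mean of each gene over 12 mice (rows), in log2 CPM; red is above and blue below the mean, and the line separates young from aged mice. Young mice 5 and 6 are red for Pirb, Lilrb4, Gp49a and Cd300lf and blue for Cd300lb, Cd300ld and Siglece, while aged mouse 7 is the low value of Cd300a.

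The 4 Cd300 genes form a cluster on chromosome 11 and recognise lipids of the cell membrane, such as phosphatidylserine on dying cells. None passed the test. Summed, they reached 721 to 1005 CPM in aged and 836 to 966 CPM in young mice. Cd300a, the inhibitory member that binds phosphatidylserine and phosphatidylethanolamine (chr11:114890041-114904651, plus strand), ran from 131 to 179 CPM with a median of 156 in young mice and from 97.9 to 175 CPM with a median of 159 in aged mice. Its log2 fold change was -0.03 with an adjusted p of 0.858 and a 95% interval of -0.28 to 0.22, and the low value was that of aged mouse 7, with the other 5 aged mice at 155 to 175 CPM. Without that mouse the log2 fold change was 0.073 and the adjusted p 0.438.

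Cd300lf, also called CLM-1, is the inhibitory member expressed on neutrophils and monocytes (chr11:115116214-115133992, minus strand). Its level was 176 to 290 CPM in young mice with a median of 186, and 135 to 214 CPM in aged mice with a median of 180. The ranges overlapped. Among the 10 genes it had the lowest log2 fold change, -0.29 ± 0.15 (SE, n = 6 per age), with an adjusted p of 0.120 in edgeR and a 95% interval of -0.61 to 0.02. Young mice 5 and 6 were at 290 and 283 CPM, and the other 4 at 176 to 192 CPM. Without both, the log2 fold change of Cd300lf was -0.056 with an adjusted p of 0.716. Under a correction for gene length, fitted library by library, it was -0.40 with an adjusted p of 0.0496.

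Cd300lb, an activating receptor that couples to DAP12 (chr11:114922781-114934386, minus strand), was at 300 to 465 CPM in young mice with a median of 394, and at 312 to 391 CPM in aged mice with a median of 354. Its aged values lay within the young range, with a log2 fold change of -0.12 (95% interval -0.33 to 0.09) and an adjusted p of 0.343. Here young mice 5 and 6 were the low ones, at 300 and 329 CPM against 384 to 465 CPM. Without both, the log2 fold change of Cd300lb was -0.26 with an adjusted p of 0.0160. Cd300ld, which couples to the Fc receptor gamma chain (chr11:114982446-114989886, minus strand), ran from 126 to 195 CPM with a median of 153 in young and from 122 to 239 CPM with a median of 170 in aged mice. It had a log2 fold change of 0.17 (-0.15 to 0.50) with an adjusted p of 0.373, and aged mice 5 and 6 at 239 and 215 CPM were above all young mice. Aged mice 1 and 7 were the lowest aged, at 135 and 122 CPM, and without them the log2 fold change was 0.36 with an adjusted p of 0.0330. Without aged mouse 5, the highest, it was 0.066 with an adjusted p of 0.731. Without young mice 5 and 6 Cd300ld was at 0.045 with an adjusted p of 0.852. Of the 4 estimates of the Cd300 genes, 3 were below and 1 above 0, and each interval held 0.

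Pilra and Sirpa were the receptor genes with the least variation among young mice. Pilra, an inhibitory receptor for sialylated O-glycoproteins (chr5:137821952-137836278, minus strand), ran from 354 to 394 CPM with a median of 373 in young and from 346 to 460 CPM with a median of 395 in aged mice. Its young coefficient of variation was 3.99% and its aged one 11.2%. The log2 fold change was 0.11 (95% interval -0.05 to 0.27) with an adjusted p of 0.247. Aged mice 4, 5 and 6 were above all young mice and the other 3 were not. Sirpa encodes the receptor of CD47, the signal by which cells ward off being engulfed (chr2:129592839-129632228, plus strand). Its CPM was the highest of the 10, at rank 163 of the genes tested, with 699 to 768 CPM and a median of 738 in young and 680 to 770 CPM and a median of 715 in aged mice. Its coefficient of variation was 3.71% and 4.76%. With a log2 fold change of -0.03, an adjusted p of 0.663 and a 95% interval of -0.16 to 0.09, the interval ran from 0.898-fold to 1.06-fold.

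**Figure D3:**
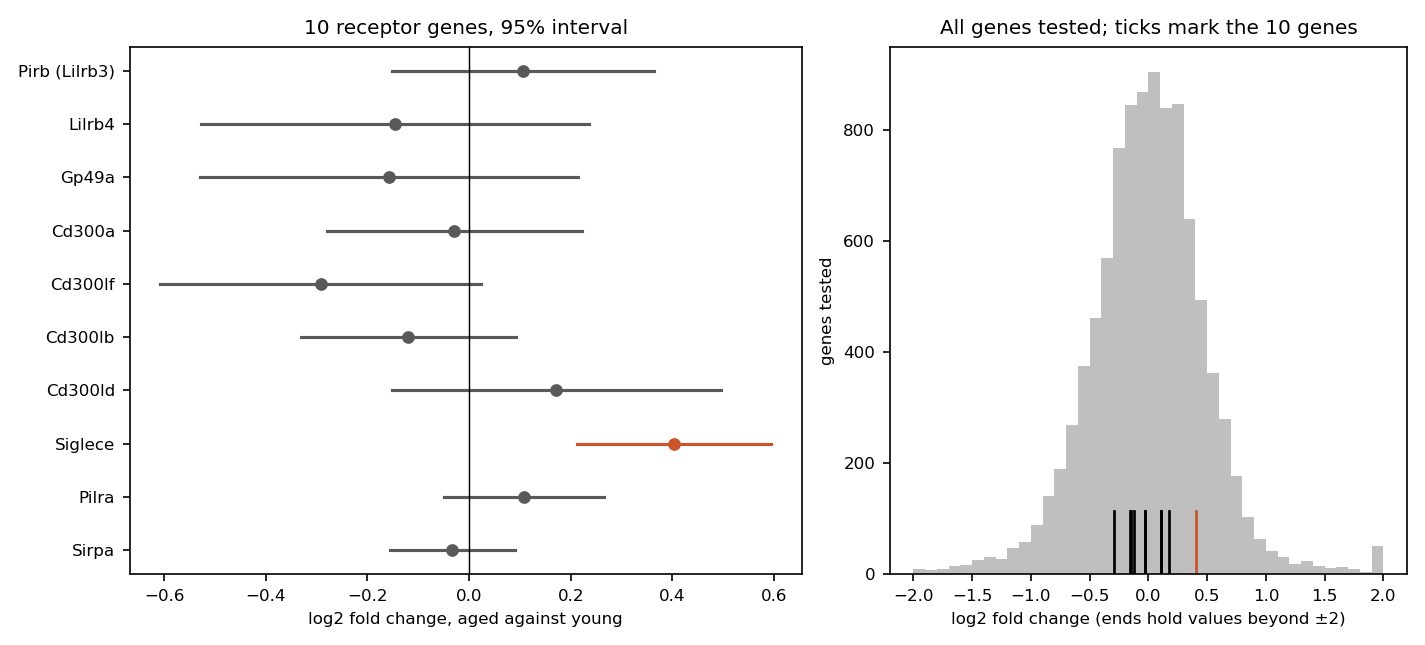
Left, log2 fold change of aged against young mice (points) with its 95% interval (lines) for the 10 receptor genes; right, histogram of the log2 fold changes of all 9742 genes tested, with ticks for the 10 genes. Siglece at 0.40, in orange, has an interval clear of 0, and the other 9 lie between -0.29 and 0.17.

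Levels of different genes were compared per kilobase of exon (RPKM from CPM). Fragments left out in shared sequence, as in Pirb, Gp49a and Lilrb4, can lower a level, so the places of these genes are approximate. In young mice the order was Gp49a 232 ± 79.2, Lilrb4 207 ± 70.9, Sirpa 173 ± 6.43, Siglece 151 ± 15.7, Pilra 145 ± 5.78, Pirb 135 ± 25.1, Cd300lb 133 ± 21.0, Cd300lf 115 ± 28.9, Cd300ld 63.9 ± 10.02 and Cd300a 33.5 ± 3.33 RPKM (SD, n = 6). Neighbours whose SD ranges did not meet were Sirpa and Siglece, Cd300lf and Cd300ld, and Cd300ld and Cd300a. In aged mice Siglece stood in place 2 with 200 ± 24.0 RPKM, between Gp49a at 208 ± 19.98 and Lilrb4 at 187 ± 28.7 RPKM, and its SD range met those of both. Below them came Sirpa at 169 ± 8.05, Pilra at 156 ± 17.5, Pirb at 146 ± 21.5 and Cd300lb at 123 ± 10.8 RPKM, then, below a gap wider than the SDs, Cd300lf at 94.0 ± 15.6 RPKM. Cd300ld, whose SD range met that of Cd300lf, was at 72.0 ± 18.7 RPKM, and Cd300a stood apart as the lowest at 32.8 ± 6.00 RPKM.

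**Figure D4:**
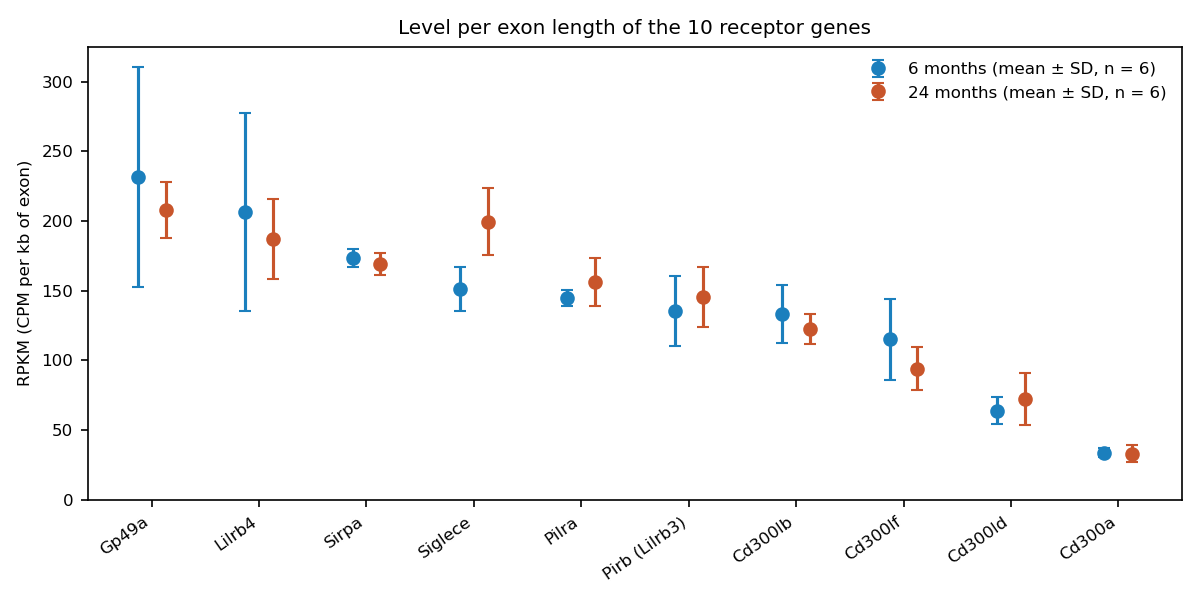
Level per exon length in RPKM (y axis, from 0) of the 10 receptor genes, ordered by the young mean; points are means and bars SD of 6 mice per age. Siglece is in place 4 in young mice, at 151 RPKM, and in place 2 in aged mice, at 200 RPKM. In aged mice its SD range meets those of Gp49a and Lilrb4. Cd300a is lowest at both ages.

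The genes whose profile over the 12 mice was nearest to that of Siglece, by the root mean square difference of centred log2 CPM, were Lrp10 at 0.0536, Usp22 at 0.0628 and Stk24 at 0.0634. Nearest to Cd300lf were Arhgap30 at 0.0977, Fes at 0.103 and Arhgef1 at 0.109. The likeness is a description over mice that share their library and age.

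Of 47 related receptors in the table, 27 were tested, and 7 were higher, 5 lower and 15 did not pass. The 12 called are 44.4% of those tested, close to the 45.4% of all genes. The median log2 fold change of the 27 was 0.06. Those that were higher included Trem3, an activating receptor of the Trem family (0.41, 421 and 316 CPM in aged and young mice). Pira6, an activating relative of Pirb (0.56, 13.6 and 9.25 CPM), was also higher, at a lower level. So was Sirpb1a, the relative of Sirpa that couples to DAP12 (0.73, 6.39 and 3.89 CPM). Pecam1, an adhesion receptor with ITIMs, was higher by 1.07, at 9.62 CPM in aged and 4.67 CPM in young mice. Siglecf, in the table as Siglec5, was higher by 0.38 and the inhibitory lectin Clec12a by 0.18. Without TMM scaling Clec12a was at 0.092 with an edgeR adjusted p of 0.224. Siglec1, a marker of resident macrophages, was 1.79 higher, with aged mouse 1 at 82.1 CPM and the other aged mice at 23.2 CPM or less. Without that mouse the log2 fold change of Siglec1 was 0.69 with an adjusted p of 0.163, and limma-voom did not call it. Those that were lower were Treml4 (-1.13), Siglecg (-0.71), Cd101 (-0.44), Ceacam1 (-0.38), which carries ITIMs, and Treml2 (-0.36). The most abundant of the list, Vsir (4632428N05Rik in the table), an immune checkpoint receptor, was at 1809 and 1773 CPM with a log2 fold change of 0.03 and an adjusted p of 0.771, and Cd33 was not called either. Without young mice 5 and 6, when 32% of all genes were called, 4 of 28 tested receptors were called, and of the 12 calls those of Cd101, Pecam1 and Trem3 were left, of which that of Cd101 was lost without aged mice 1 and 7 (-0.31, adjusted p 0.0656). Treml4 was then at -0.47 (adjusted p 0.221) and Siglecg at -0.27 (0.264). The other 7 lost calls had adjusted p from 0.0517 for Ceacam1 (-0.31) to 0.136 for Siglecf (0.27), and included Siglec1 at 2.14 and Pira6 at 0.54, with folds about as large as before or larger. With the gene length correction 9 of 27 were called (33.3%, and 33.4% of all genes), 7 of the 12 and, in addition, Pilrb1 and Pilrb2, the paired relatives of Pilra. Trem3 was then at 0.11 (adjusted p 0.246), Pira6 at 0.46 (0.0517), Sirpb1a at 0.48 (0.0627), Clec12a at 0.11 (0.188) and Treml2 at -0.21 (0.131).

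Of the genes listed for inhibitory signalling, 17 were tested, and 2 were higher, 5 lower and 10 did not pass. The list mixes phosphatases, kinases and adaptors, not all of which inhibit, so its counts give no direction of inhibition. The 7 called are 41.2%, near the 45.4% of all genes. Ptpn6, which encodes SHP-1 and is a main effector of these receptors, was at 475 and 450 CPM with a log2 fold change of 0.08 and an adjusted p of 0.355. Ptpn11, for SHP-2, was lower by 0.19 ± 0.06 (SE, adjusted p 0.0136), and Inpp5d, for SHIP-1, had -0.16 ± 0.06 with an adjusted p of 0.0407, a call that was lost when any of 10 single mice was left out. Ptprc, the phosphatase CD45, was at -0.27, the ubiquitin ligase Cbl at -0.40 and the adaptor Lcp2 at -0.22. Csk, the kinase that restrains the Src family (0.23), and the adaptor Grb2 (0.18) were higher. Fgr and Lyn, kinases of the Src family, did not pass, at 0.15 and 0.05. With the gene length correction, when 33.4% of all genes were called, 3 of the 17 were called, with Cbl and Lcp2 left of the 7 and Ptprj added, while Ptprc was at -0.042 (adjusted p 0.708), Csk at 0.17 (0.118) and Grb2 at 0.16 (0.126), and Ptpn11 and Inpp5d turned to 0.028 and 0.017. Without young mice 5 and 6 the calls of Csk (0.16, 0.119) and Grb2 (0.12, 0.184) were lost and the other 5 were left. Without TMM scaling 0 were higher and 6 lower, with Csk at 0.15 (0.0529) and Grb2 at 0.09 (0.166). Of all genes 45.6% were then called, and 37.8% of those were higher in aged mice.

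The 3 adaptors of the activating partners were higher, and of the 7 kinases and signalling genes below them 5 were lower, so that 8 of 10 were called beside 45.4% of all genes. Tyrobp was at 1009 ± 161 CPM in aged and 699 ± 167 CPM in young mice, 0.53 on the log2 scale with an adjusted p of 0.0109, and Fcer1g was at 670 ± 57.6 and 503 ± 103 CPM, with 0.41 and 0.0111. Hcst, which encodes DAP10, was higher by 0.62. Lower were Syk (-0.52, 547 and 785 CPM), the kinase that docks on DAP12, and Pik3r5 (-0.53), Pik3cd (-0.27), Plcg2 (-0.27) and Vav1 (-0.21). Btk and Card9, at -0.20 and -0.55, did not pass. In this list of 10 the genes that were higher have 442 to 658 exon bases and those that were lower 4168 to 5404. Under a correction for gene length, when 33.4% of all genes were called, 2 of the 8 calls were left, Syk and Pik3r5. Tyrobp was then at 0.020, Fcer1g at -0.055 and Hcst at 0.050 (edgeR adjusted p 0.708). Plcg2 was at -0.14 (0.117), Pik3cd at -0.060 (0.649) and Vav1 at -0.083 (0.389). Btk and Card9 were called as lower under this correction. Without young mice 5 and 6, when 32% of all genes were called, the list kept 6 of the 8 calls and lost those of Pik3cd (-0.23, adjusted p 0.0699) and Vav1 (-0.14, 0.102).

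Of 19 tested genes listed for ligands of these receptors and for the handling of sialic acid, 8 were higher, 1 was lower and 10 did not pass. The 9 called are 47.4%, near the 45.4% of all genes, of which 22.4% were higher and 23% lower. Cd47, the ligand of Sirpa, was at 391 ± 21.6 CPM in aged and 331 ± 26.8 CPM in young mice, with a log2 fold change of 0.24 and an adjusted p of 0.00909. The MHC class I genes that supply ligands of Pirb were higher, with H2-D1 at 0.54, B2m at 0.54 and H2-K1 at 0.49. For the sialic acid that Siglece binds, Cmas, which activates sialic acid, was higher by 0.47. The sialyltransferases St6gal1, St3gal6 and St3gal4 were higher by 1.12, 0.58 and 0.26. St6gal1 was low, at 4.25 CPM in aged and 1.94 CPM in young mice, while St3gal5 was at 458 and 456 CPM. The sialyltransferases that did not pass were St8sia4 (0.31), St3gal5 (0.0072), St3gal2 (-0.08) and St3gal1 (-0.17), and Gne, the first enzyme of the synthesis, had -0.12 and did not pass. Thbs1, thrombospondin-1, was lower, at 325 ± 122 CPM against 1019 ± 227 CPM and -1.65. With the gene length correction (33.4% of all genes) 4 of the 9 calls were left, those of H2-D1, Cmas, St6gal1 and Thbs1, and Rtn4 was called besides. B2m was then at 0.18 (adjusted p 0.169), H2-K1 at 0.32 (0.0612), Cd47 at 0.13 (0.188), St3gal4 at 0.17 (0.157) and St3gal6 at 0.41 (0.106). Without young mice 5 and 6 (32% of all genes) there were 6 of the 9, with the calls of Cd47 (0.15, adjusted p 0.0599), St3gal4 (0.19, 0.105) and St3gal6 (0.42, 0.143) lost. These counts come from the same cells as the receptors, so they say nothing of ligands on other cells.

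**Figure D5:**
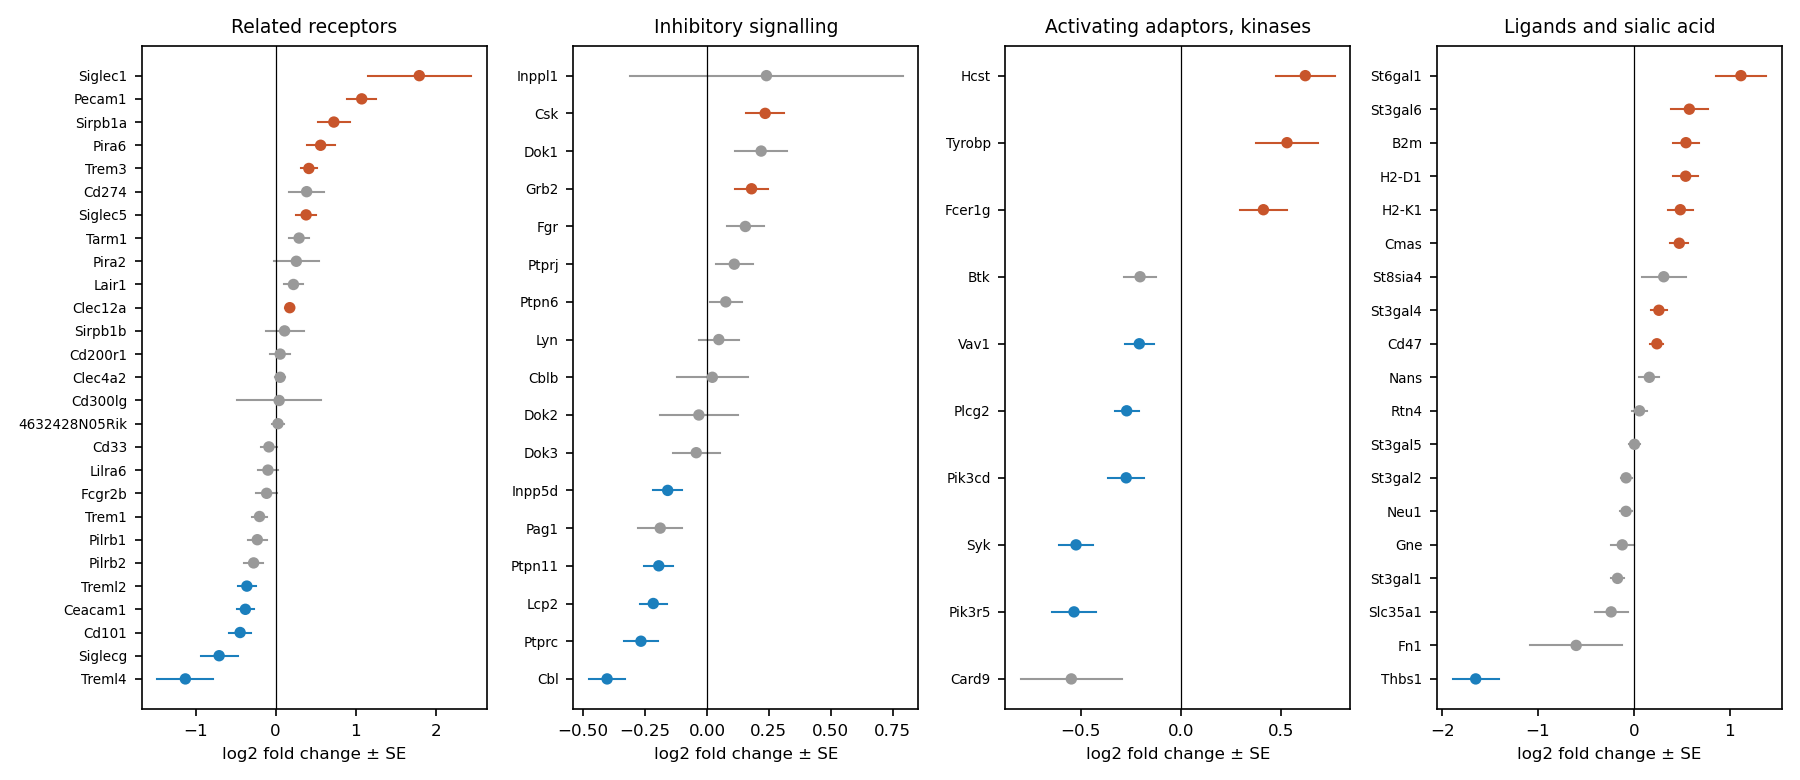
Log2 fold change of aged against young mice (x axis, points, ± SE) for the tested genes of 4 lists (panels); orange is called higher, blue called lower, and grey not called. The activating panel has 3 orange adaptors above 0.41 and 5 blue kinases and signalling genes below -0.20.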

How the data were processed

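RNA of 12 libraries, 1 per mouse, was sequenced in pairs from a stranded preparation. The deposited values are whole-number counts of fragments per gene, which the authors made with featureCounts 2.0.0 on a UCSC annotation of mm10, counting reverse-stranded pairs whose mapping quality reached 60. Which aligner was used is not given in the sources used here. That filter and the omission of fragments that meet several genes lower the counts of near-identical genes. Totals were 8737941 to 16300374 in aged and 4613239 to 9079237 in young mice. In the alignment file names all young mice have lower numbers than all aged mice, so a preparation that changed between them cannot be told apart from age.

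Counts were tested with edgeR 4.0.16 in R 4.3.3 (filterByExpr, TMM, quasi-likelihood test, Benjamini-Hochberg over the 9742 genes tested, threshold 0.05). The study itself used DESeq2, run here (1.42.0) as an alternative, as was limma-voom (limma 3.58.1). The gene length correction was an offset from a loess curve of log2 CPM deviations on exon length in each library. CPM used TMM-scaled totals, and the SE came from the fold change and F. The biological coefficient of variation was 15.7%. The fitting code was tested on simulated data. The mice were taken as separate animals from their labels.

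The 10 genes and the lists beside them were chosen with earlier results of these data known. Named genes were the 10, the called genes and the most abundant gene of each list, Ptpn6 and the other direct partners, and the nearest profiles; others named, such as Cd33, Gne, Btk, Card9, Fgr and Lyn, were picked after their values were seen. Of the listed symbols, 10 were matched through RefSeq synonyms. 1 gene of the inhibitory signalling list is not reported here and was left out of its counts. Promoters are those of RefSeq (GRCm38.p6) and transcripts those of GENCODE M21, compared with Biopython 1.88 and Python 3.11.15. No protein sequences were used, so the planned search for ITIMs was not run, and the roles given are background.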

Additional observations from a re-analysis of the deposited data

Results flagged for a closer look

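In 120 groups of 6 mice, of which chance would mark about 1 in 20, 11 had 1 mouse whose gap to the next, as a share of the range, exceeded Dixon's 95% limit. Of the receptor genes this was Cd300a, with aged mouse 7 at 97.9 CPM and the next at 155 CPM. Among partner genes, Ceacam1 was highest in aged mouse 7, at 338 CPM with the next at 247 CPM, and Fcer1g in aged mouse 5, at 778 CPM with the next at 671 CPM. Aged mouse 1 was highest for Siglec1, at 82.1 CPM with the next at 23.2 CPM, and for Treml4, at 25.3 CPM with the next at 13.97 CPM.

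Aged mouse 1 also had the highest summed markers of resident macrophages (1143 CPM, next 370 CPM), dendritic cells (837 CPM, next 288 CPM), T and NK cells (37.9 CPM, next 15.01 CPM), eosinophils, basophils and mast cells (30.8 CPM, next 10.9 CPM) and erythroid cells and megakaryocytes (32.96 CPM, next 15.7 CPM). Its dendritic cell sum was mostly Cd74, at up to 661 CPM in aged mice, where Clec9a averaged 0.83 CPM. Its T and NK cell sum was mostly Cd4, at up to 25.3 CPM, while Cd3e averaged 0.034 CPM in aged mice. Ccr3, at up to 27.7 CPM, made up most of the eosinophil, basophil and mast cell sum. Progenitor and cell cycle markers, mostly Mki67 and Top2a, were highest among the aged in aged mouse 7, at 659 CPM with the next at 425 CPM. Without both of these mice Siglece was at 0.49 (adjusted p 0.00103), Cd300ld at 0.36 (0.0330) and Cd300a at 0.095 (0.352).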

How the results depend on the processing

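Siglece stayed called in all 23 alternatives, at 0.28 to 0.49 and with adjusted p from 0.000347 to 0.0478. Of the 10 receptor genes 1 was called with any single mouse left out (1 to 1), when 38.8% to 48% of all genes were called. The count was 2 with the gene length correction (33.4% of all genes) and 2 without aged mice 1 and 7 (46.4%). It was 3 without young mice 5 and 6 (32%), an alternative chosen after the data were seen. With 1 mouse left out, and the same 38.8% to 48% of all genes, the other lists gave 9 to 13 of 27 related receptors and 5 to 7 of 17 inhibitory signalling genes. They gave 6 to 10 of 10 activating adaptors and kinases and 8 to 10 of 19 ligand genes. Without young mice 5 and 6 they gave 4 related receptors and 5 inhibitory signalling genes, and with the length correction 3 inhibitory signalling genes, 4 activating genes and 5 ligand genes.

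Mice with the same number in both ages did not deviate together (r = -0.14, -0.07, -0.24 and -0.25), so the replicate block over the 8 mice of shared numbers joins only numbers. With 35.1% of all genes called, it gave 2 called receptor genes (Cd300lf -0.44, adjusted p 0.0122) and 4 inhibitory signalling genes, 0 higher and 4 lower, did not call Cd101 (-0.32, adjusted p 0.200), and turned Pirb (Lilrb3) to -0.012 and Cd300a to 0.012.

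Directions also turned for Lilrb4 (0.18 without young mice 5 and 6, 0.0063 without young mouse 6), Gp49a (0.14), Vsir (4632428N05Rik, -0.037) and Arhgef1 (0.040) without young mice 5 and 6. Cd300a turned to 0.0053 with upper quartile factors, 0.13 with the length correction, 0.0041 after thinning the counts to the smallest total and 0.095 without aged mice 1 and 7, and lay at -0.074 to 0.073 with 1 mouse left out, above 0 without aged mouse 7 or young mouse 1. Sirpa turned to 0.0013 with upper quartile factors and 0.090 with the length correction, Fcer1g to -0.055, Inpp5d to 0.017 and Ptpn11 to 0.028 with the latter, and Vsir to -0.058 and Ptpn6 to -0.017 without TMM factors. None of these turned values passed the test. The Gp49a share difference was -0.56 to 0.70 points with 1 mouse left out, -0.70 without aged mice 1 and 7 and -0.29 without young mice 5 and 6. The causes were not tested.

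Calls lost with 1 mouse left out (adjusted p up to 0.163) were those of Inpp5d (any of aged 1, 2, 5, 6 and 7 and young 1, 2, 5, 9 and 10), Grb2 (aged 4, 5 and 6, young 1, 2, 5 and 6), Siglec1 (aged 1 and 2, young 1, 2, 9 and 10), Vav1 (aged 1, 2 and 6, young 5 and 6), St3gal6 (aged 4 and 6, young 5 and 6), Pik3cd (aged 2 and 6, young 6), Arhgap30 (aged 2, young 5 and 6), Siglecg (young 5 and 6), Treml2 (aged 2, young 6), Siglecf (Siglec5 in the table, aged 5) and Clec12a (young 6). Of the 40 called genes named beside the 10, 29 kept their call in all fits without 1 mouse, and 22 lost it with the length correction, 17 without young mice 5 and 6 and 13 with the block. Without TMM factors 37.8% of all called genes were higher in aged mice in place of 49.4%. The lowest count of a receptor gene in a library was 750.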
